A study of Drosophila melanogaster with 9 samples.

Results

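The piRNA clusters of chromosome arm 3L and of chromosome 4 of Drosophila melanogaster were followed through small RNA libraries made from testes. A cluster was included when its name in the deposited cluster tables places it on 3L or on 4, and clusters of the separate sequence 3LHet were not included. This rule took 13 of the 99 clusters, 11 on 3L and 2 on chromosome 4. The values are raw reads per cluster, given as a percent of all cluster-mapping reads of the library and called the share.

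The spermatocyte group held 1 library from can mutants and 1 from sa mutants. In both genotypes germ cells arrest as primary spermatocytes, and the apical tips, where the mitotic germ cells lie, had been cut off the testes. The spermatogonia group held 1 library from bam mutants and 1 from bgcn mutants, whole testes labelled as early, mitotically dividing germ cells. A single library came from whole testes of y w flies, which hold all stages from the earliest germ cells to mature sperm. The labels name these genes without their alleles, the fly's age or the number of testes pooled, and the stage of each library rests on the labels, since the tables hold no marker genes. The aub and ago3 libraries of the study hold no cluster values in the tables used here.

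PIWI-interacting RNAs (piRNAs) guide Piwi proteins to transposon transcripts, and piRNA clusters are the loci from which their long precursor RNAs are made. Most fly clusters lie in or beside the heterochromatin around the centromeres and are built of nested, broken copies of transposons, so that a read can match several clusters and also dispersed transposon copies. Chromosome 4, the smallest of the genome, carries many repeats and heterochromatin marks along much of its length. In the testis, piRNAs are known above all for silencing the Stellate repeats and transposons in the male germline.

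Cluster-mapping reads numbered 21594 in can, 11636 in sa, 20920 in bam, 32654 in bgcn and 18371 in y w, so that a small share rests on few reads and the sa library gives the widest intervals. The 2 libraries of a group are different mutants, and every test of the stages measured the spread between genotypes. Stage, genotype and the cutting of the tips differ together between the groups and cannot be told apart. Fewer cells that make a cluster's RNA and less RNA per cell cannot be told apart either. A share is relative, so it is also lower where the reads of other clusters are higher. The bam library stood apart from the others in its cluster profile: its share was above that of bgcn in 75 of the 99 clusters (75.8%) and its TMM factor, the scaling factor edgeR computes from the typical cluster, was 1.84 against 0.686 to 1.04 in the other 3 stage libraries. Intervals in brackets are 95% exact intervals and cover counting error only, since reads without molecular identifiers are not independent molecules.

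Along 3L, 10 of the 11 clusters lay in a run of 1228 kb at the high-coordinate end of the arm, the side of the centromere. The clusters are lettered here in order of position. Cluster 3L-A, at 3L:19841657-19861753, lay alone, 3412 kb from the next one. The run opened with 3L-B at 3L:23273964-23314199, 3L-C at 3L:23452699-23482444 and 3L-D at 3L:23630899-23671051. It went on with 3L-E at 3L:23964084-24046804, 3L-F at 3L:24086324-24137471, 3L-G at 3L:24171077-24199822 and 3L-H at 3L:24224763-24257092. It closed with 3L-I at 3L:24312078-24321880, 3L-J at 3L:24352561-24388470 and 3L-K at 3L:24467284-24502317. Gaps inside the run measured from 24.9 to 293 kb. On chromosome 4, 4-A lay at 4:824220-865373 and 4-B at 4:1258473-1348320, 393 kb apart. The tables state no genome build. Of the 99 clusters, 61 carry arm names such as 3LHet and U that belong to Release 5 of the fly genome, so no gene annotation of a later release was set against these positions. The clusters were 9.8 kb (3L-I) to 89.8 kb (4-B) long, with a median of 35.9 kb, the same value as over all 99.

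Summed, the 3L clusters made up a smaller part of the cluster reads in spermatocyte testes than in spermatogonia testes. They held 1.73% of reads in can (1.56 to 1.92) and 1.29% in sa (1.09 to 1.51), against 5.35% in bam (5.05 to 5.66) and 2.68% in bgcn (2.51 to 2.86). The y w testes held 2.03% (1.83 to 2.24). The groups did not overlap, and the means were 1.51 ± 0.313% in spermatocyte testes and 4.01 ± 1.89% in spermatogonia testes (SD, n = 2 each), 2.66-fold lower in spermatocyte testes. The spread inside the spermatogonia group was wide, with a ratio of bam to bgcn of 1.996 (1.83 to 2.18), and with bgcn alone as the spermatogonia library the log2 ratio was -0.83 in place of -1.41. An exact permutation test of 2 libraries against 2 cannot pass a threshold of 0.05, so no test was made on the sums.

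The chromosome 4 clusters had the same order of libraries at a lower level. They held 0.208% in can (0.152 to 0.279) and 0.163% in sa (0.0983 to 0.255), against 0.918% in bam (0.793 to 1.06) and 0.416% in bgcn (0.350 to 0.492). In y w they held 0.212% (0.151 to 0.290), a value inside the intervals of both spermatocyte libraries. The group means were 0.186 ± 0.0319% in spermatocyte testes and 0.667 ± 0.354% in spermatogonia testes (SD, n = 2 each), 3.59-fold lower in spermatocyte testes. The log2 ratio of these means was -1.84, and with bgcn alone as the spermatogonia library it was -1.16.

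**Figure D1:**
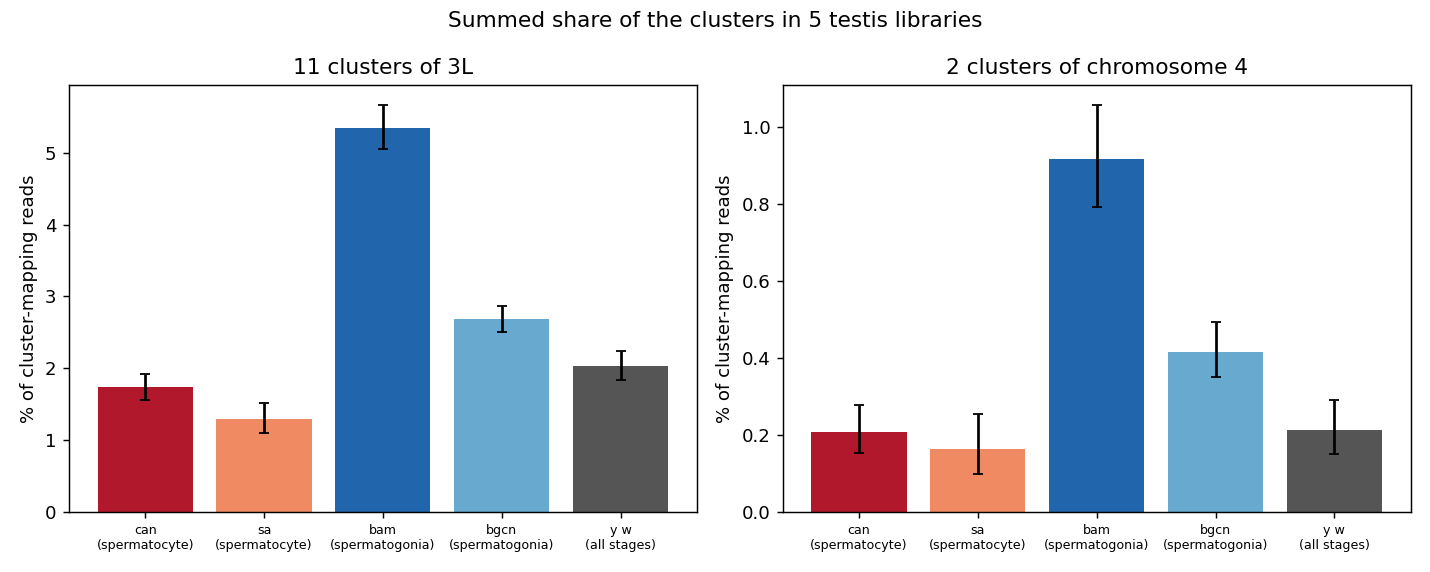
Percent of cluster-mapping reads (y axis, starting at 0) in the 11 clusters of 3L and the 2 clusters of chromosome 4, in each of 5 libraries (x axis); error bars are 95% exact binomial intervals. In both panels can and sa lie below bgcn, and bam, at 5.35% and 0.918%, lies above all other libraries.

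The order of the stage libraries was the same against transposon-mapping reads, which may include reads that also match clusters. The 13 clusters together gave 0.806 reads in can and 0.643 in sa for every 1000 transposon-mapping reads, against 2.99 in bam and 1.74 in bgcn, with 1.15 in y w. A lower summed share in both spermatocyte libraries was not particular to 3L and chromosome 4. It was also found for 2LHet (3.04-fold lower by group means), 2RHet (2.03-fold), 2R (1.81-fold), 3RHet (1.63-fold) and the single XHet cluster. The groups overlapped for 2L, X and 3LHet, the part of the heterochromatin of the same arm that is named separately. U had a higher share in both spermatocyte libraries, 23.6% in can and 18.5% in sa, against 5.56% in bam and 5.96% in bgcn. No difference between arms was tested.

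Cluster by cluster, the shares of 10 of the 13 were lower in both spermatocyte libraries than in both spermatogonia libraries and those of none were higher. Over all 99 clusters 54.5% were lower in this way and 13.1% were higher, so most clusters of the whole table shared the direction. On TMM-scaled reads, which set each library to its typical cluster, 9 of 13 were lower without overlap, beside 35.4% of all, and 2 of 13 were higher, beside 23.2%. By share the count of lower clusters was 11 of 13 without can (68.7% of all), 10 without sa (61.6%) and 12 without bgcn (70.7%). Leaving out a library can only keep or raise this count, so these omissions do not test it. Leaving out bam could not change it, since bgcn was the lower spermatogonia library in all 13, and over all clusters gave 59.6%. By share, the 3 clusters whose groups overlapped were 3L-B, 3L-F and 3L-H.

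**Figure D2:**
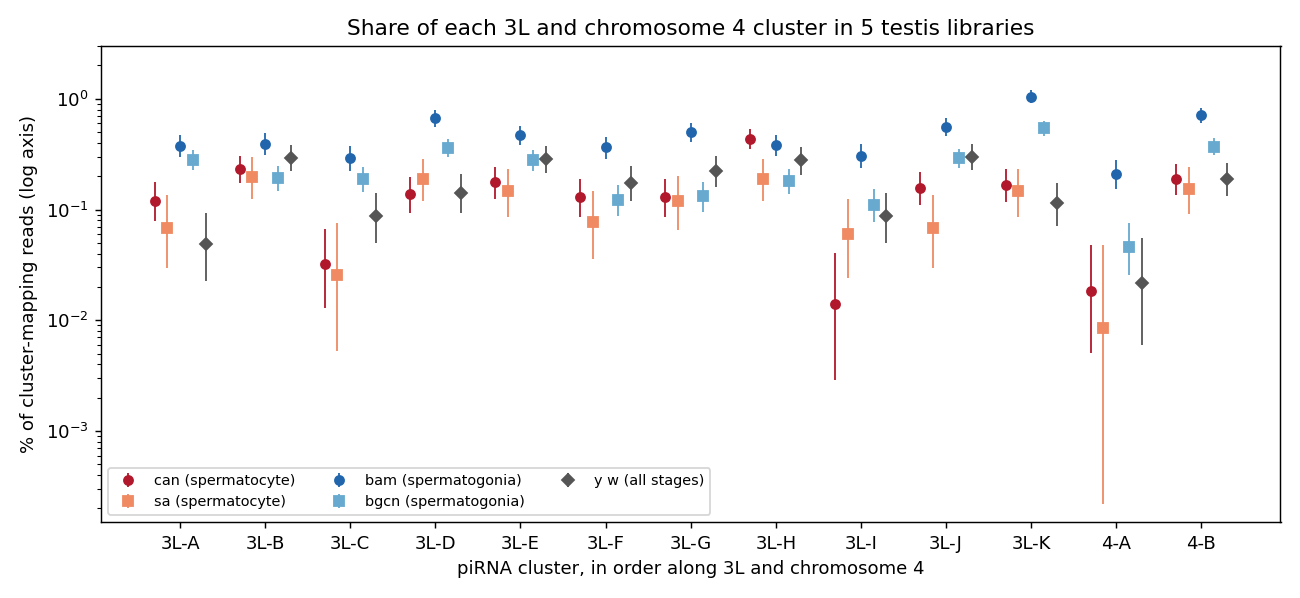
Percent of cluster-mapping reads (log y axis) of each of the 13 clusters (x axis) in the can, sa, bam, bgcn and y w libraries; points are single libraries and bars are 95% exact binomial intervals. The bam point is the highest in all clusters but 3L-H, where can is highest at 0.435%, and the lowest point of all is 4-A in sa at 0.00859%, from 1 read.

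The cluster at the end of the run, 3L-K, was the most abundant of the 13 in both spermatogonia libraries. It had 36 reads in can (0.167%) and 17 in sa (0.146%), against 218 in bam (1.04%) and 177 in bgcn (0.542%), and 21 in y w (0.114%). The spermatocyte libraries lay close together and below both spermatogonia libraries, and y w lay below them all, within the counting interval of sa (0.0851 to 0.234). The means were 0.156 ± 0.0146% in spermatocyte testes and 0.792 ± 0.354% in spermatogonia testes (SD, n = 2 each).

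Cluster 3L-C had few reads in spermatocyte testes. It had 7 reads in can (0.0324%) and 3 in sa (0.0258%), against 61 in bam (0.292%) and 61 in bgcn (0.187%), and 16 in y w (0.0871%). Its share was 8.22-fold lower in spermatocyte testes by group means, and y w lay between the groups. Cluster 3L-I, the shortest of the 13, had 3 reads in can (0.0139%) and 7 in sa (0.0602%), against 64 in bam (0.306%) and 36 in bgcn (0.110%), with 16 in y w (0.0871%). The sa interval (0.0242 to 0.124) held the bgcn value, so sa lay below bgcn by less than counting error. The can interval, up to 0.0406, did not reach it. Here the order of can and sa was the reverse of that in most clusters, with a ratio of can to sa of 0.231 (0.0385 to 1.01).

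On chromosome 4, cluster 4-A had the fewest reads of all 13 in sa, bam, bgcn and y w. It had 4 reads in can (0.0185%) and 1 in sa (0.00859%), against 44 in bam (0.210%) and 15 in bgcn (0.0459%), and 4 in y w (0.0218%). The upper bounds of the can and sa intervals, 0.0474 and 0.0479%, reach the bgcn value, so only bam stands clear of them. Cluster 4-B, the longest of the 13, carried most of the chromosome 4 reads: 41 in can (0.190%) and 18 in sa (0.155%), against 148 in bam (0.707%) and 121 in bgcn (0.371%), with 35 in y w (0.191%). Both spermatocyte libraries and y w lay together, below both spermatogonia libraries.

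A pair of clusters in the 3L run did not share this pattern. Cluster 3L-H had 94 reads in can (0.435%) and 22 in sa (0.189%), against 80 in bam (0.382%) and 59 in bgcn (0.181%), and 51 in y w (0.278%). Each group held 1 high and 1 low library, and the means were 0.312 ± 0.174% in spermatocyte testes and 0.282 ± 0.143% in spermatogonia testes (SD, n = 2 each). Cluster 3L-B had 50 reads in can (0.232%) and 23 in sa (0.198%), against 82 in bam (0.392%) and 63 in bgcn (0.193%), with 54 in y w (0.294%). Both spermatocyte values and bgcn were within each other's counting intervals, and bam lay above them. Cluster 3L-F had 28 reads in can (0.130%) and 9 in sa (0.0773%), against 76 in bam (0.363%) and 40 in bgcn (0.122%), with 32 in y w (0.174%). Its bgcn value lay between those of can and sa.

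The other 5 clusters of 3L lay between these extremes. Cluster 3L-A, the one outside the run, had 26 reads in can (0.120%) and 8 in sa (0.0688%), against 79 in bam (0.378%) and 92 in bgcn (0.282%), with 9 in y w (0.0490%). It was the cluster in which bam and bgcn were closest, with a ratio of 1.34 (0.980 to 1.83). Clusters 3L-D and 3L-J were 3.13-fold and 3.76-fold lower in spermatocyte testes by mean share, and 3L-E 2.32-fold. Cluster 3L-G had 28 reads in can (0.130%) and 14 in sa (0.120%), against 105 in bam (0.502%) and 43 in bgcn (0.132%), with 41 in y w (0.223%). Its bgcn value was within the counting error of both spermatocyte values, so its place among the 10 clusters that do not overlap rests on a difference smaller than counting error.

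None of the 13 passed the test across all clusters. In edgeR's quasi-likelihood test with TMM scaling, which fits all 99 clusters and adjusts p-values over them by the Benjamini-Hochberg method, 0 of 13 had an adjusted p under 0.05, where 1.01% of all clusters passed as higher and 0% as lower. At an unadjusted p under 0.05 there were 2 of 13, both lower (3L-C and 3L-K), beside 9.09% of all clusters, and 0 higher, beside 15.2%. DESeq2 called 1 of 13, 3L-C, lower, beside 4.04% of all clusters. The lowest adjusted p was that of 3L-C, whose fold change on the log2 scale was -2.05 with a standard error of 0.55 (edgeR adjusted p = 0.0959). The corresponding value was -1.33 for 3L-K (SE 0.42, edgeR adjusted p = 0.136) and -1.97 for 4-A (SE 0.85, edgeR adjusted p = 0.205). For 3L-I and 4-B it was -1.56 (SE 0.78) and -0.64 (SE 0.41).

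TMM scaling sets the typical cluster near 0, so these fold changes are relative to other clusters. On this scale 11 of 13 values were below 0, beside 52.5% of all clusters, and the median was -0.65 for the 13 and -0.11 for the 99. The values above 0 were those of 3L-H (1.16, SE 0.50, edgeR adjusted p = 0.205) and 3L-B (0.57, SE 0.41, edgeR adjusted p = 0.418). Both were below 0 with the authors' factors and with transposon totals as the scaling, and 3L-B also with library totals, where 3L-H was at 0.17.

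Whether the 13 clusters counted as lower in spermatocyte testes depended on the scaling. With library totals, which test the shares, edgeR called 2 of 13 as lower (3L-C and 3L-K), beside 9.09% of all clusters. With transposon-mapping totals it called 8, beside 35.4%. With each library scaled by the authors' factor, whose basis is not stated, it called 11, all but 3L-B and 3L-H, beside 48.5%. As higher it called 0 of 13 under each of these scalings, beside 4.04% with library totals, 4.04% with transposon totals and 3.03% with the authors' factors. These scalings moved the median of all 99 clusters from -0.11 to -0.93, -1.19 and -1.58. Relative to that median the 13 clusters lay at -0.54 with TMM and -0.72 with library totals. They lay at -0.69 with transposon totals and -0.64 with the authors' factors. A scaling shifts all clusters of a library alike, so these values had to stay close and are no test of the 13 clusters' place. The number of calls also changed when 1 library was left out, an omission that leaves a group with a single library assumed to vary like the pair of the other group. With the authors' factors 0 of 13 passed without can and 0 without sa, 6 without bam and 10 without bgcn. With transposon totals the counts were 0 without can, 0 without sa, 3 without bam and 11 without bgcn, and with library totals 0, 0, 0 and 8 in the same order. The fold changes themselves stayed of similar size: with the authors' factors the median of the 13 was -2.22 with all 4 libraries, -2.31 without can and -2.04 without sa. The lost calls therefore do not show that the difference comes from can or sa, and a p that misses the threshold does not show that the stages were alike.

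**Figure D3:**
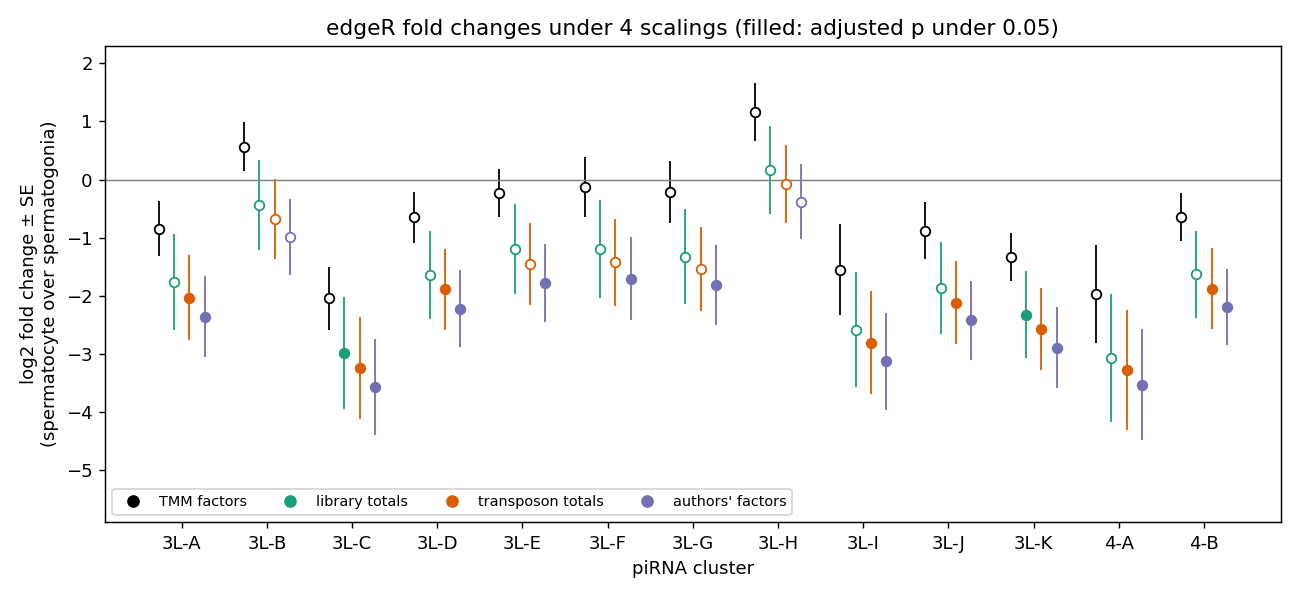
Log2 fold change of spermatocyte over spermatogonia testes (y axis, bars are standard errors) for each of the 13 clusters (x axis) in edgeR under 4 scalings; filled points have an adjusted p under 0.05. All TMM points are open, 11 of them below 0, and 3L-C and 3L-K are filled under the other 3 scalings.

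A share taken within the 13 clusters is the same under every scaling. By this measure, which was added after the values had been seen, the groups did not overlap in 3 clusters that were higher in spermatocyte testes (3L-B, 3L-E and 3L-H, 23.1% of the 13) and in 5 that were lower (3L-C, 3L-J, 3L-K, 4-A and 4-B, 38.5%). These shares add up to a fixed total, so a higher part for some clusters requires a lower part for others. The same measure was not taken within other sets of clusters, so these counts have no background beside them. Cluster 3L-H held 22.4% of the reads of the 13 clusters in can (18.5 to 26.7) and 13.02% in sa (8.34 to 19.04), against 6.10% in bam (4.87 to 7.54) and 5.84% in bgcn (4.47 to 7.46). In y w it held 12.4% (9.36 to 15.95). Neither spermatocyte interval reached a spermatogonia interval, and the ratio of the group means was 2.97. Cluster 3L-B held 11.9% in can (8.99 to 15.4) and 13.6% in sa (8.83 to 19.7), against 6.25% in bam (5.01 to 7.70) and 6.23% in bgcn (4.82 to 7.90), and 13.1% in y w (10.002 to 16.8). The libraries of a group were alike and the groups apart, with a ratio of 2.05.

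In the other direction, 3L-K held 8.59% in can (6.09 to 11.7) and 10.1% in sa (5.97 to 15.6), against 16.6% in bam (14.7 to 18.8) and 17.5% in bgcn (15.2 to 19.99). Its sa interval overlapped both spermatogonia intervals and its can interval did not. The y w value of 5.10% (3.18 to 7.69) was the lowest of the 5. Cluster 3L-C held 1.67% in can (0.674 to 3.41) and 1.78% in sa (0.368 to 5.10), against 4.65% in bam (3.58 to 5.94) and 6.03% in bgcn (4.65 to 7.68). The sa interval, from 3 reads, overlapped both spermatogonia intervals and the can interval did not. For 4-A the ratio of the group means was 0.320, the lowest of all, but from 0.955% in can (0.261 to 2.43) and 0.592% in sa (0.0150 to 3.25), against 3.36% in bam (2.45 to 4.48) and 1.48% in bgcn (0.833 to 2.44), so only bam stood apart from can. For 3L-E and 3L-J the ratios were 1.16 and 0.701, with intervals that overlapped between the groups. Cluster 4-B took nearly the same part in every stage library, 9.79% in can and 10.7% in sa against 11.3% in bam and 12.0% in bgcn, with 8.50% in y w. Its can interval (7.11 to 13.04) and sa interval (6.44 to 16.3) held both spermatogonia values. Its place among the lower clusters therefore rests on a difference smaller than counting error. With 2 libraries a group none of these differences could pass an exact permutation test, and no test was made.

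**Figure D4:**
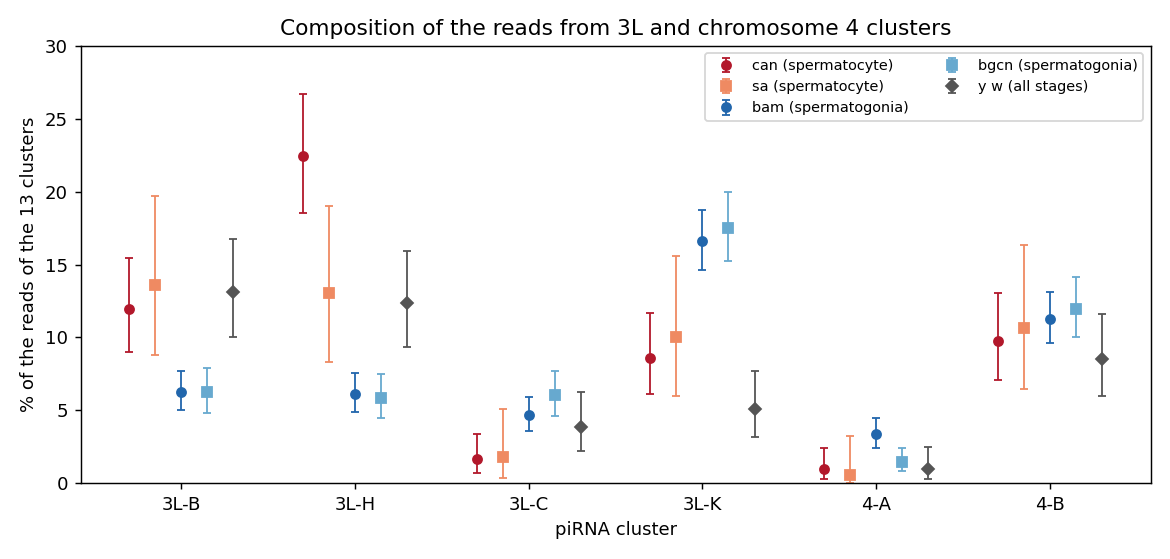
Percent of the reads of the 13 clusters together (y axis, starting at 0) held by 6 of them (x axis) in the 5 libraries, with 95% exact binomial intervals. For 3L-B and 3L-H can and sa lie above bam and bgcn, for 3L-C and 3L-K below them, and the points of 4-B lie close together, from 8.50% to 12.0%.

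The order of the clusters by reads differed between the groups accordingly. In bam and in bgcn the first 3 were 3L-K, 4-B and 3L-D. In can they were 3L-H, 3L-B and 4-B, and in sa 3L-B came first, with 3L-D and 3L-H tied behind it. In y w the first were 3L-J with 55 reads, 3L-B with 54 and 3L-E with 52, which counting error does not separate. Cluster 4-A was the last or next to last in all 5 libraries. Across the 13 clusters, log2 shares correlated (Pearson) at r = 0.81 between can and sa and at 0.86 between bam and bgcn. Between libraries of different stages r was from 0.60 to 0.70. By Spearman's rank correlation the values were 0.87 and 0.84, and from 0.48 to 0.64 between stages. These values describe 13 clusters that share libraries and may share reads.

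Per length, the order of the 13 clusters was a different one. In the spermatogonia libraries 3L-I (6.53 reads per kb in bam, 3.67 in bgcn), 3L-K (6.22 and 5.05) and 3L-A (3.93 and 4.58) had the most reads per kb. In spermatocyte testes 3L-H was densest in can, with 2.91 reads per kb, and 3L-I in sa, with 0.714. Cluster 4-A was the sparsest in every library, with 0.0972 reads per kb in can, 0.0243 in sa, 1.07 in bam, 0.364 in bgcn and 0.0972 in y w. The long cluster 4-B was also sparse, with 0.456 in can, 0.200 in sa, 1.65 in bam, 1.35 in bgcn and 0.390 in y w. The median of the 13 clusters was 0.747 in can and 0.398 in sa, against 2.47 in bam and 1.82 in bgcn, with 0.629 in y w. Over all 99 clusters the medians were 0.931 and 0.441, against 2.24 and 1.89, with 1.14 in y w. Raw reads per kb compare clusters within a library, since the libraries differ in depth.

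None of the 13 was a leading source of cluster reads. The best rank of any of them among the 99 clusters was 23 in can and 34 in sa, against 17 in bam and 19 in bgcn, and 37 in y w. All 13 covered 11.6% of the length of all clusters and gave 1.94% of the reads in can and 1.45% in sa, against 6.27% in bam and 3.10% in bgcn, with 2.24% in y w.

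The libraries of a stage differed from each other, and more so in spermatogonia. The bam share was above the bgcn share in all 13 clusters, and the counting interval of the ratio lay above 1 in 12 of them, beside 56.6% of all clusters. The ratio of bam to bgcn was smallest in 3L-A, at 1.34, and largest in 4-A, at 4.58 (2.50 to 8.86), followed by 3L-G at 3.81 (2.65 to 5.57) and 3L-F at 2.97 (1.997 to 4.46). Its median was 1.92 over the 13 and 1.68 over the 99. The can share was above the sa share in 11 of 13 clusters, beside 64.6% of all. The ratio of can to sa had its interval above 1 in 2 clusters, 3L-H at 2.302 (1.44 to 3.85) and 3L-J at 2.29 (1.04 to 5.73), beside 19.2% of all clusters, and below 1 in 0, beside 11.1%. For 4-A, with 4 reads against 1, the ratio of can to sa was 2.16 (0.213 to 106).

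Whole y w testes were set beside the stage libraries. In 4 of 13 clusters, 3L-C, 3L-I, 4-A and 4-B, the y w share lay above both spermatocyte libraries and below both spermatogonia libraries, beside 22.2% of all clusters. For 3L-I, 4-A and 4-B this place rests on differences smaller than counting error. Cluster 4-B had 0.191% in y w and 0.190% in can, and 4-A had 4 reads in each. The y w share of 3L-I, 0.0871%, lay inside the intervals of sa (0.0242 to 0.124) and bgcn (0.0772 to 0.153). The y w share was within the range of the 4 stage libraries in 11 of 13 clusters, beside 78.8% of all clusters, above it in 0, beside 11.1%, and below it in 3L-A and 3L-K, beside 10.1%. In both of these the y w interval overlapped that of sa. With TMM-scaled reads 8 of 13 were within the range, beside 70.7%, 2 above it, beside 13.1%, and 3 below it, beside 16.2%. All of these counts are near the shares over all clusters. Against each stage, the y w share was above both spermatocyte libraries in 9 of 13 clusters, beside 54.5% of all, and below both spermatogonia libraries in 7 of 13, beside 46.5%. Across the 13 clusters, log2 shares in y w correlated (Pearson) at r = 0.74 with can and 0.79 with sa, and at 0.48 with bam and 0.46 with bgcn, as a description. Spearman's rank correlation was 0.76 with can and 0.61 with sa, and 0.49 with bam and 0.25 with bgcn.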

How the data were processed

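The labels' protocols describe dissection of testes by hand and a TruSeq small RNA kit. Bowtie 1 and DESeq2 are named, per the submitters' processing notes, but not what each did. Genome build, read lengths and the treatment of multi-mapping reads are not stated in the labels or tables. Each deposited table holds the raw count of reads per cluster or per transposon (117 elements) and a normalised signal that equals the raw count times 1 factor of the authors per library. Below the deposited bgcn cluster table stands a leftover cell that is not whole, so that column was declared an expected count. All 99 cluster values are whole and rounding changed none.

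The stages were compared with edgeR 4.0.16 (R 4.3.3), TMM scaling, quasi-likelihood, two-sided, over clusters with at least 10 reads in at least 2 of the 4 stage libraries, which kept all 99 and all 13. The standard error was taken as the fitted fold change (log2) divided by the square root of F. The fit was tested on simulated data. Alternatives were DESeq2 1.42.0, other scalings, other filters and each stage library left out. Intervals came from scipy 1.17.1. All clusters of 3L and 4 were named. Members, comparisons and alternatives were chosen with earlier results of these data known. Each stage library came from a different mutant, with 1 library per mutant, so p-values measure the spread between these libraries.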

Additional observations from a re-analysis of the deposited data

How the results depend on the processing

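Counting the called clusters depended on the scaling and on single libraries. Over all 99 clusters 1 passed with TMM, 17 with DESeq2, 13 with library totals, 51 with the authors' factors and 39 with transposon totals, and of the 13 clusters 0, 1, 2, 11 and 8. The 2 other filters on reads left both counts as they were. With 1 stage library left out, 0 to 9 of all clusters passed with TMM, and 0 of the 13. Alternatives added after seeing the data left out 1 library under the other scalings. Over all clusters they gave 3 to 33 calls with library totals, 0 without can, 0 without sa, 24 without bam and 40 without bgcn with the authors' factors, 1 to 49 with transposon totals and 1 to 8 with DESeq2. Over the 13 clusters they gave 0 to 8 with library totals, 0 to 10 with the authors' factors (6 without bam), 0 to 11 with transposon totals and 0 with DESeq2 under each omission.

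Single log2 fold changes changed sign in 7 cases. Cluster 3L-B was at -0.44 with library totals, -0.99 with the authors' factors and -0.68 with transposon totals, and 3L-H at -0.38 with the authors' factors and -0.082 with transposon totals. Without bam, 3L-F was at 0.27 and 3L-G at 0.42, and with 1 library left out they ranged from -0.49 to 0.27 and from -0.66 to 0.42. The cause was not tested. The summed share of 3L, with a log2 ratio of spermatocyte over spermatogonia of -1.41, ranged from -1.82 to -0.83 with 1 library left out, and that of chromosome 4, at -1.84, from -2.30 to -1.16. Other denominators moved neither by more than the spread between libraries, but chromosome 4 without 4-B was at -3.24, from 4-A alone. The number of the 13 clusters with y w outside the range of the stage libraries was 2 by share and 5 with TMM-scaled reads. The number lower without overlap was 10 by share and 9 on TMM-scaled reads. By share it was 10 to 12 with 1 library left out, an omission that can only keep or raise it. Leaving out bam could not change it, as bgcn was the lower of the pair in all 13. No paired analysis was possible because each stage library comes from a different mutant and the labels name no partner for it in the other group. Depth limits 4-A, 3L-C and 3L-I most, with 1 to 7 reads in each spermatocyte library.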
